A study of Saccharomyces cerevisiae with 8 samples.

Results

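Glycerol metabolism and the osmotic response were followed through 8 genes of budding yeast, GPD1, GPD2, GUT1, GUT2, GCY1, STL1, FPS1 and HOG1, which were picked by name from the 6596 gene models of the deposited count table. Poly(A) RNA had been sequenced from 4 wild-type (WT) libraries and 4 libraries of mcd1-1, where letters A to D name the replicates. The strains are derivatives of the laboratory strain W303-1a and were grown in YPD, a rich medium with glucose, for 2 generations at 31 °C from an optical density of 0.2 to log phase. The mutant carries the mcd1-1 allele of MCD1 (SCC1), whose product is the kleisin of cohesin, the ring that keeps sister chromatids paired. The labels name no osmotic stress and no added glycerol in either group, so the comparison asks how these genes differ between mutant and WT in growth on glucose. The labels do not state that the replicates were separate cultures, so p-values reflect only how far these libraries vary.

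Yeast makes glycerol from the glycolytic intermediate dihydroxyacetone phosphate, which Gpd1 or Gpd2 reduces to glycerol 3-phosphate and a phosphatase then converts to glycerol. Glycerol serves as the compatible solute that balances high external osmolarity, and its synthesis also reoxidises NADH. Cells burn glycerol through the kinase Gut1 and the mitochondrial dehydrogenase Gut2, both of which are repressed by glucose in WT yeast, or by a side route through Gcy1. The MAP kinase Hog1 is activated by hyperosmotic stress and raises transcription of GPD1 and STL1, among other genes.

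The libraries held 22331070 to 58506447 counts, and the 8 genes had 151 to 24867 counts each in a library. All 8 genes passed the filter on low counts. Across the 6558 gene models tested in edgeR, 40.4% were called at an adjusted p under 0.05, 20.7% higher and 19.7% lower in mcd1-1. In both groups libraries A and B stood apart from libraries C and D. The labels name no batch for the letters, and what separates the sets was not tested. For a named gene of the pathway lists whose fold change differed between the sets by the term for genotype by set, the values within A and B and within C and D are therefore given too. Over all genes the median log2 fold change was -0.01, scaling by library size alone moved it to 0.33, and upper-quartile scaling moved it to 0.13. MCD1 mRNA was higher in mcd1-1 (log2 fold change 1.96 ± 0.15, SE), but the table cannot separate the mutant allele from the WT allele, so this level checks no label.

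In mcd1-1, GUT2, GCY1 and STL1 rose and HOG1 fell, while GPD1, GPD2, GUT1 and FPS1 were not called. These are 3 genes higher and 1 lower of 8, beside the 20.7% and 19.7% of all genes. After TMM scaling the groups did not overlap for 5 of the genes. Of these 3 were higher and 2 lower in the mutant, beside 22.1% and 21.0% of all genes. From libraries A and B alone 6 genes were called higher and 1 lower (34.8% and 32.9% of all genes), and from C and D alone 4 higher and 3 lower (38.8% and 37.1%). Library size alone gave 5 higher and 0 lower (37.5% and 8.39%), DESeq2 3 and 2 (23.2% and 23.8%), and a block for the sets 4 and 2 (33.7% and 34.2%). The median log2 fold change of the 8 genes was 0.63, beside -0.01 over all genes. In RNA of a whole culture, a change in every cell cannot be told apart from a larger change in some of the cells.

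Stretches upstream of 6 of the genes are shown because GUT2, GCY1 and STL1 rose together and HOG1 fell, with GUT1 and GPD1 as the nearest partners in the pathway. Each runs 5′ to 3′ on the strand of the gene from 300 to 101 bases before the start codon, read from the RefSeq R64 genome. Capitals mark the letters AGGGG or their reverse complement, the core of the stress response element bound by Msn2 and Msn4.
GUT2, chrIX:53809-54008, minus strand: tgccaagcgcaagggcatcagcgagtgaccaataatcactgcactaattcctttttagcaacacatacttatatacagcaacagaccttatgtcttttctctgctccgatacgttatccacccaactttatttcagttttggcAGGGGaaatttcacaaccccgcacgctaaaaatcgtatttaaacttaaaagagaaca
GCY1, chrXV:550814-551013, plus strand: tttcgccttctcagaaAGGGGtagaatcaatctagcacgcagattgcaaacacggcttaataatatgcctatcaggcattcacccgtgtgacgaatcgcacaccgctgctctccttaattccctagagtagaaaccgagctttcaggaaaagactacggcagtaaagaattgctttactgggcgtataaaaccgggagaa
STL1, chrIV:1507705-1507904, plus strand: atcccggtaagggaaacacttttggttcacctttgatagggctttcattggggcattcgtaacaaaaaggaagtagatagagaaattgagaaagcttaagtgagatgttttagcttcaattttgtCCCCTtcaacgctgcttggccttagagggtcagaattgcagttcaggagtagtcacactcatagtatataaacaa
GUT1, chrVIII:38609-38808, minus strand: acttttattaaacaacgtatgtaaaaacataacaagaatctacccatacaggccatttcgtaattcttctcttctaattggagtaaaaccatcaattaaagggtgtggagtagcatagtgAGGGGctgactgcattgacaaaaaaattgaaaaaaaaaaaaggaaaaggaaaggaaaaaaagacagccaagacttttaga
GPD1, chrIV:411525-411724, plus strand: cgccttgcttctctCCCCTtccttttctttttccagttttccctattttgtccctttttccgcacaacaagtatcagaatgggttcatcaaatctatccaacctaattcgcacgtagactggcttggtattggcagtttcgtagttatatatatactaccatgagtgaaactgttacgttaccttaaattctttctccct
HOG1, chrXII:371320-371519, plus strand: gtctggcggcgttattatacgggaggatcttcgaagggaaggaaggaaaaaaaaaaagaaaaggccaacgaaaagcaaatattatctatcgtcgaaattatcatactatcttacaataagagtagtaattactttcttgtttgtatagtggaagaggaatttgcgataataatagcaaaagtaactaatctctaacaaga

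AGGGG on either strand occurred in the 300 bases before the start codon of 6 of the 8 genes, that is in all but FPS1 and HOG1. It was present in 22.5% of 5865 such windows in the genome and in 19 of the 61 other pathway genes. In the stretches shown the match began at position -157 from the start codon of GUT2, -175 of STL1, -180 of GUT1, -284 of GCY1 and -286 of GPD1. CCAAT, the box bound by the Hap2/3/4/5 complex, was found in 6 of the 8 windows and in 42.3% of all windows. TGACG, the core of the CRE site read by Sko1, was found only before GCY1 among the 8 genes and in 24.8% of all windows. TTGGAG, a core of Adr1 sites, occurred only before GUT1 among them, where it shares bases with a CCAAT match, and in 10.6% of all windows. The spaced CGG and CCG triplets of a Gal4 site were in 0 of the 8 windows and in 1.47% of all. The 8 genes lie on chromosomes IV, VIII, IX, XII and XV, with STL1 22.2 kb, GUT1 36.4 kb, FPS1 49.9 kb and GUT2 51.8 kb from the nearest chromosome end.

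Per length, GPD1, HOG1 and GPD2 were the most abundant of the 8 in WT, and GUT1, GUT2 and STL1 the least. GPD1 stood at 254 ± 53.6 CPM per kb of coding length (mean ± SD, n = 4), where CPM is counts per 1000000 after TMM scaling. HOG1 followed at 233.5 ± 11.8 and GPD2 at 176 ± 32.8 CPM per kb, and the ranges of GPD1 and HOG1 overlapped. GCY1 (83.1 ± 6.46) and FPS1 (71.7 ± 4.08) overlapped in the middle of the order, as did GUT1 (31.4 ± 7.20) and GUT2 (25.04 ± 7.59) below them. STL1 was lowest at 5.35 ± 1.04 CPM per kb, a level above that of 4.5% of the genes tested. In mcd1-1 the order was different. GCY1 reached 207.5 ± 9.09 and GUT2 168 ± 51.5 CPM per kb, so that GUT2 passed from above 21.9% of genes in WT to above 82.4% in mcd1-1. HOG1 was at 163 ± 20.0 and GPD2 at 134 ± 11.5 CPM per kb, and the ranges from GPD1 down to GPD2 each overlapped the next in the mutant. STL1 remained last at 23.2 ± 12.3 CPM per kb, now overlapping GUT1 at 46.6 ± 15.0.

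**Figure D1:**
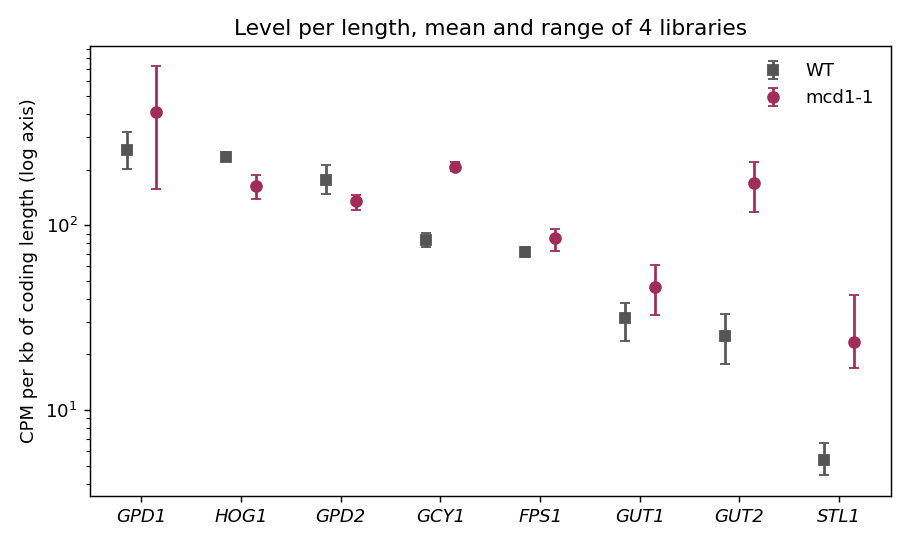
Level of the 8 genes in CPM per kb of coding length on a log axis, with points for the mean and bars for the range of 4 libraries, WT as squares and mcd1-1 as circles. GUT2 moves from 25.04 to 168 CPM per kb and GCY1 from 83.1 to 207.5, while the range of GPD1 in mcd1-1 spans 157.5 to 723.

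Among the genes of breakdown, GUT2 (YIL155C, chrIX:51759-53708, minus strand), the mitochondrial glycerol-3-phosphate dehydrogenase, had the largest fold change. Like the other 7 genes it has a single coding exon in the RefSeq annotation of R64. Its level was 58.2, 64.6, 34.7 and 37.8 CPM in WT A to D and 430.5, 397, 257 and 229 CPM in mcd1-1 A to D. Every mutant library lay above every WT library, and in both groups A and B were higher than C and D. GUT2 rose 6.73-fold (log2 fold change 2.75 ± 0.29, SE, adjusted p = 0.00021 in edgeR). The change was of the same size within A and B (2.75 ± 0.14) and within C and D (2.78 ± 0.08), and the difference between these sets was -0.01 ± 0.14 (adjusted p = 0.950).

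GCY1 (YOR120W, chrXV:551114-552052, plus strand), an NADP-dependent aldo-keto reductase that oxidises glycerol to dihydroxyacetone, was the steadiest of the genes that rose. WT A to D held 79.9, 71.7, 85.6 and 75.0 CPM, and mcd1-1 A to D held 185, 205, 196 and 193 CPM. The groups were far apart and the 4 mutant libraries close together, with no division between A and B and C and D. GCY1 rose 2.5-fold (1.32 ± 0.12, adjusted p = 9.4e-05). The model YOR121C overlaps it by 255 bp and also rose (0.86, adjusted p = 0.0058), and whether strand was used in counting is not known here, so reads of the pair cannot be assigned to one of them.

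GUT1 (YHL032C, chrVIII:36379-38508, minus strand), the glycerol kinase that feeds Gut2, held 79.8, 80.3, 50.6 and 57.2 CPM in WT A to D and 129, 124, 69.3 and 74.1 CPM in mcd1-1 A to D. Mutant libraries C and D lay below WT A and B and above WT C and D, so the groups overlapped, although each mutant library was above the WT library of the same letter. GUT1 was not called over the 8 libraries (0.57 ± 0.25, adjusted p = 0.101). A block for the letter gave a call (higher, 0.54, adjusted p = 0.0034), which made 4 of the 8 genes higher and 1 lower, beside 29.4% and 30.2% of all genes. It was also called within A and B (0.66 ± 0.10) and within C and D (0.45 ± 0.07).

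**Figure D2:**
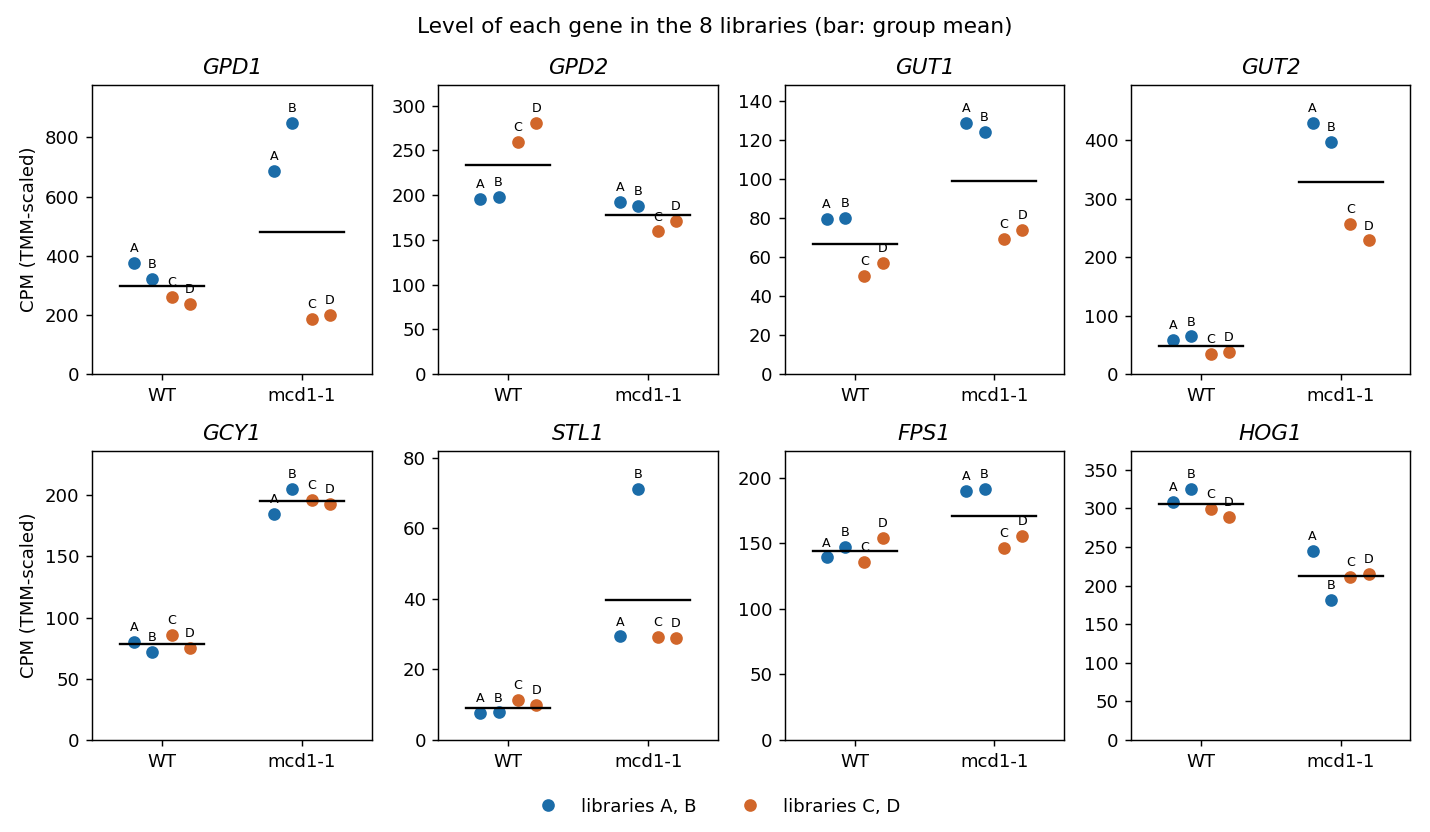
CPM of each gene in the 8 libraries, WT on the left and mcd1-1 on the right of each panel, with letters for the replicate, blue for A and B, orange for C and D and a bar for the group mean. GUT2, GCY1 and STL1 separate the groups completely, while GPD1 in mcd1-1 is at 685 and 849.9 CPM in A and B and at 185 and 200.2 CPM in C and D.

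The rest of the breakdown list, DAK1, DAK2 and YPR1, went in different directions. DAK2, a dihydroxyacetone kinase that acts after Gcy1, went from 10.7 ± 5.24 to 43.6 ± 8.25 CPM (mean ± SD, n = 4) and rose 4.05-fold (2.02 ± 0.34, adjusted p = 0.0020). DAK2 rose 7.02-fold within A and B and 2.87-fold within C and D (adjusted p of the difference 0.0095). DAK1, its more abundant isozyme, was at 197 ± 18.4 and 215.5 ± 30.6 CPM and was not called (0.13 ± 0.15, adjusted p = 0.504). YPR1, the paralog of GCY1 with 66.7% nucleotide identity, fell from 161 ± 39.4 to 103 ± 9.12 CPM (-0.64 ± 0.19, adjusted p = 0.021). Within A and B the value was -1.02 and within C and D -0.17 (adjusted p of the difference 0.0014). The call was lost under upper-quartile scaling (adjusted p = 0.060), under library size alone (0.188) and without WT A (0.055), WT B (0.060), mcd1-1 A (0.060) or mcd1-1 B (0.072). The list as a whole had 3 genes higher, 1 lower and 2 not called of 6, beside 20.7% higher and 19.7% lower of all genes, with a median of 0.94 beside -0.01.

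GPD1 and GPD2, isozymes of the NAD-dependent glycerol-3-phosphate dehydrogenase with 65.2% nucleotide identity, were not called over the 8 libraries. GPD1 (YDL022W, chrIV:411825-413000, plus strand), the isozyme induced by osmotic stress, held 377, 321, 261 and 236 CPM in WT A to D and 685, 849.9, 185 and 200.2 CPM in mcd1-1 A to D. After TMM scaling, mutant libraries A and B were above every WT library, and mutant libraries C and D were below every WT library. The log2 fold change of GPD1 was 0.68 ± 0.48 (adjusted p = 0.280). Within A and B it was 1.14 ± 0.19 (adjusted p = 8.2e-04) and within C and D it was -0.33 ± 0.07 (adjusted p = 0.0018), a difference between the sets of -1.51 ± 0.19 (C and D minus A and B, adjusted p = 0.0011). The sign within each set thus differed after TMM scaling, and no single direction describes GPD1 at that scaling. The TMM factors were 0.887 and 0.902 for WT C and D but 1.09 and 1.11 for mcd1-1 C and D. As a share of all counts, GPD1 was lower in mcd1-1 C than in WT C but higher in mcd1-1 D than in WT D. The fall within C and D thus depends on the scaling. The model YDL023C overlaps it by 257 bp.

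GPD2 (YOL059W, chrXV:217126-218448, plus strand), the isozyme tied to redox balance without oxygen, held 195, 198, 259.6 and 281 CPM in WT A to D and 192, 188, 159 and 171 CPM in mcd1-1 A to D. After TMM scaling all 4 mutant libraries were below all WT libraries, by a narrow margin in A and B and a wide one in C and D. As a share of all counts, however, mcd1-1 A and B were above WT A and B. The log2 fold change of GPD2 was -0.39 ± 0.16 (adjusted p = 0.082). It was -0.25 under upper-quartile scaling (adjusted p = 0.233) and -0.05 under library size alone (adjusted p = 0.821). GPD2 was called lower by DESeq2 (-0.41, adjusted p = 0.034), and within C and D it was at -0.67 ± 0.06 (adjusted p = 1.6e-05) but within A and B at -0.05 ± 0.11 (adjusted p = 0.712). The difference between the sets was -0.66 ± 0.11 (adjusted p = 0.0032).

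The phosphatases that complete the synthesis moved in opposite directions. RHR2, also called GPP1 and the more abundant of the pair, fell from 1067 ± 134 to 500.4 ± 123 CPM (-1.09 ± 0.21, adjusted p = 0.0036). HOR2, also called GPP2 and known for induction by osmotic stress, rose from 123 ± 14.3 to 199 ± 60.7 CPM (0.69 ± 0.22, adjusted p = 0.030). Within A and B its value was 0.88 and within C and D 0.47 (adjusted p of the difference 0.046). Leaving out 1 library ended the HOR2 call in 3 cases, with an adjusted p of 0.068 without WT C, 0.071 without WT D and 0.051 without mcd1-1 A. The coding sequences share 82.7% of their bases, below the 90% taken here as near-identical. The 4 genes of synthesis thus gave 1 higher, 1 lower and 2 not called, beside 20.7% higher and 19.7% lower of all genes. Their median was 0.15 beside -0.01.

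**Figure D3:**
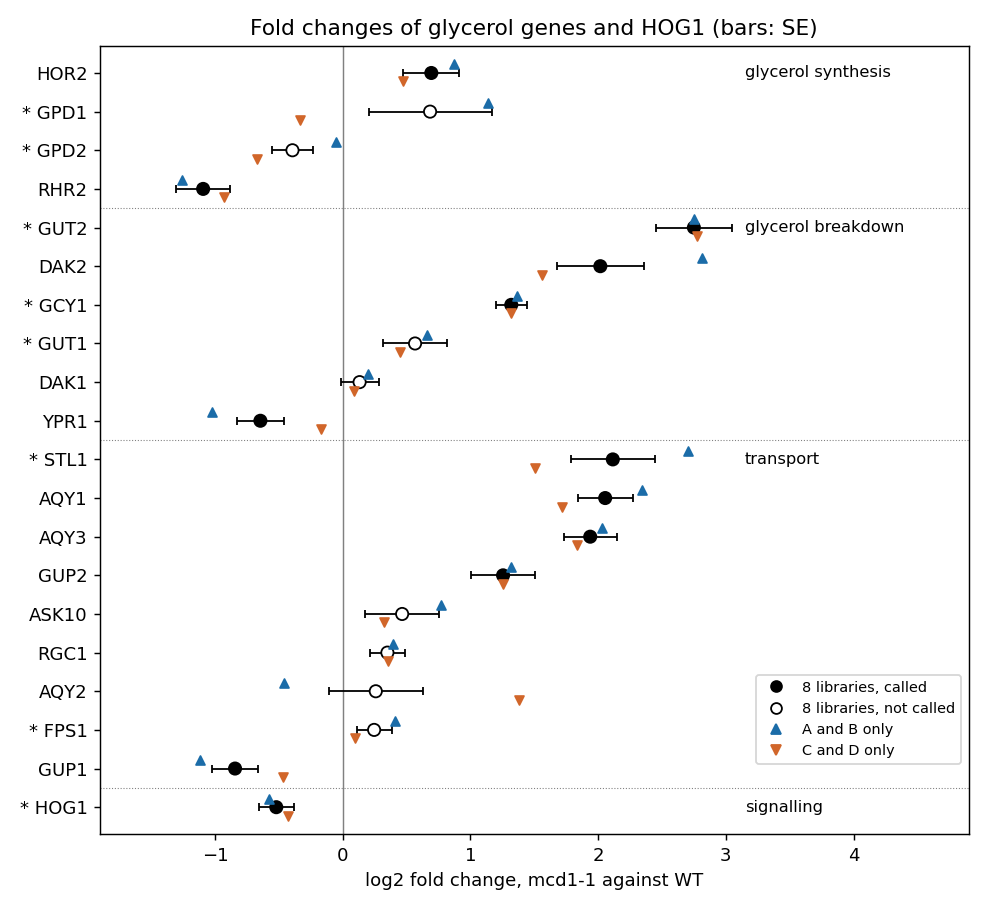
Log2 fold change of the 19 genes of glycerol synthesis, breakdown and transport and of HOG1, with an asterisk for the 8 genes of the set. Circles with SE bars come from all 8 libraries, filled where called, and triangles come from A and B only or C and D only. The triangles of GUT2 and GCY1 coincide, whereas those of GPD1 lie at 1.14 and -0.33, on either side of 0.

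STL1 (YDR536W, chrIV:1508005-1509714, plus strand), the plasma membrane symporter that takes up glycerol with protons, was the least abundant of the 8 genes and rose. Its values were 7.59, 7.82, 11.3 and 9.85 CPM in WT A to D and 29.4, 71.3, 29.3 and 29.0 CPM in mcd1-1 A to D. The groups did not overlap, and mutant library B stood far above the other 3 mutant libraries. STL1 rose 4.33-fold (2.11 ± 0.33, adjusted p = 0.0013). Without mcd1-1 B the log2 fold change was 1.72 (adjusted p = 5.5e-04). Within C and D, which do not hold that library, it was 1.51 ± 0.09, and within A and B 2.71 ± 0.37. The difference between the sets was -1.24 ± 0.49 (adjusted p = 0.074).

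FPS1 (YLL043W, chrXII:49938-51947, plus strand), the channel that lets glycerol out of the cell and closes under hyperosmotic stress, held 139, 147, 136 and 154 CPM in WT A to D. In mcd1-1 A to D it held 190.1, 192, 146 and 156 CPM. Mutant libraries A and B were above every WT library, C lay within the WT range and D just above it. FPS1 was not called (0.25 ± 0.14, adjusted p = 0.181). Within A and B it was called higher (0.41 ± 0.11, adjusted p = 0.0090) and within C and D it was not (0.10 ± 0.06, adjusted p = 0.202). The difference between the sets was -0.35 ± 0.12 (adjusted p = 0.042), a call that was lost without WT A (adjusted p = 0.146), WT B (0.078), WT D (0.176), mcd1-1 C (0.144) or mcd1-1 D (0.087). Of the 8 genes, the difference between sets was called for GPD1, GPD2 and FPS1, beside 36.7% of all genes.

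The transport list held 4 genes higher, 1 lower and 4 not called of 9, beside 20.7% and 19.7% of all genes, with a median of 0.47 beside -0.01. AQY1, an aquaporin, rose from 10.6 ± 1.38 to 44.0 ± 12.3 CPM (2.06 ± 0.22, adjusted p = 1.9e-04), with 2.34 within A and B and 1.72 within C and D (adjusted p of the difference 0.031). AQY3 (YFL054C), a channel protein similar to Fps1, rose 3.83-fold (1.94 ± 0.21), and it lies beside DAK2 on chromosome VI, 20.8 kb from the end. Of the related membrane-bound O-acyltransferase genes GUP1 and GUP2, linked to glycerol uptake by early work, GUP2 rose (1.26 ± 0.25) and GUP1 fell (-0.84 ± 0.18). GUP1 was at -1.12 within A and B and -0.47 within C and D (adjusted p of the difference 0.012). The Fps1 regulators RGC1 (0.35 ± 0.14, adjusted p = 0.070) and ASK10 (0.47 ± 0.29, adjusted p = 0.225) were not called, but both were called higher with the replicate block (adjusted p = 0.015 and 0.014). ASK10 was at 0.77 within A and B and 0.32 within C and D (adjusted p of the difference 0.012). AQY2 was not called (0.26 ± 0.37, adjusted p = 0.601), with log2 fold changes of -0.46 within A and B and 1.38 within C and D (adjusted p of the difference 4.2e-04).

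HOG1 (YLR113W, chrXII:371620-372927, plus strand), the MAP kinase of the osmotic pathway, held 308, 325.5, 299 and 289 CPM in WT A to D and 245, 181, 211 and 215 CPM in mcd1-1 A to D. All 4 mutant libraries were below all WT libraries after TMM scaling. As a share of all counts, however, mcd1-1 A was slightly above WT C and D. HOG1 fell by 0.52 ± 0.14 on the log2 scale (adjusted p = 0.016). The call was lost without mcd1-1 C (adjusted p = 0.054) and under library size alone (-0.19, adjusted p = 0.259), where the median of all genes was at 0.33. These are mRNA levels, and phosphorylation of Hog1, on which its activity depends, was not measured.

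Ratios of paired genes within a library do not depend on the scaling between libraries, and 4 such ratios were compared by a 2-sided exact permutation test over the 8 libraries. The smallest p that 4 against 4 can give is 0.0286, and p-values were adjusted over the 4 pairs. The pairs come from genes chosen with earlier results of these data known. GUT2, HOR2, RHR2 and STL1 each separated the groups by themselves after TMM scaling. Ratios that hold these genes are therefore no separate evidence. The count ratio of GUT1 to GUT2 was 1.24 to 1.51 in WT and 0.270 to 0.324 in mcd1-1, without overlap. It fell by 2.21 on the log2 scale (exact p = 0.0286, adjusted p = 0.0381), so the kinase and the dehydrogenase of the same route changed by unequal amounts. The ratio of HOR2 to RHR2 rose 3.42-fold (exact p = 0.0286, adjusted p = 0.0381), from 0.0936 to 0.146 in WT up to 0.240 to 0.806 in mcd1-1. STL1 to FPS1 also rose 3.43-fold (exact p = 0.0286, adjusted p = 0.0381), with every mutant library above every WT library. For GPD1 to GPD2 the groups overlapped, and the log2 difference of 0.76 did not pass (exact p = 0.286), with 1.18 within A and B and 0.34 within C and D. The arrangements of this test ignore the letters, and the mutant ratio was above the WT ratio of the same letter in 4 of 4 pairs.

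**Figure D4:**
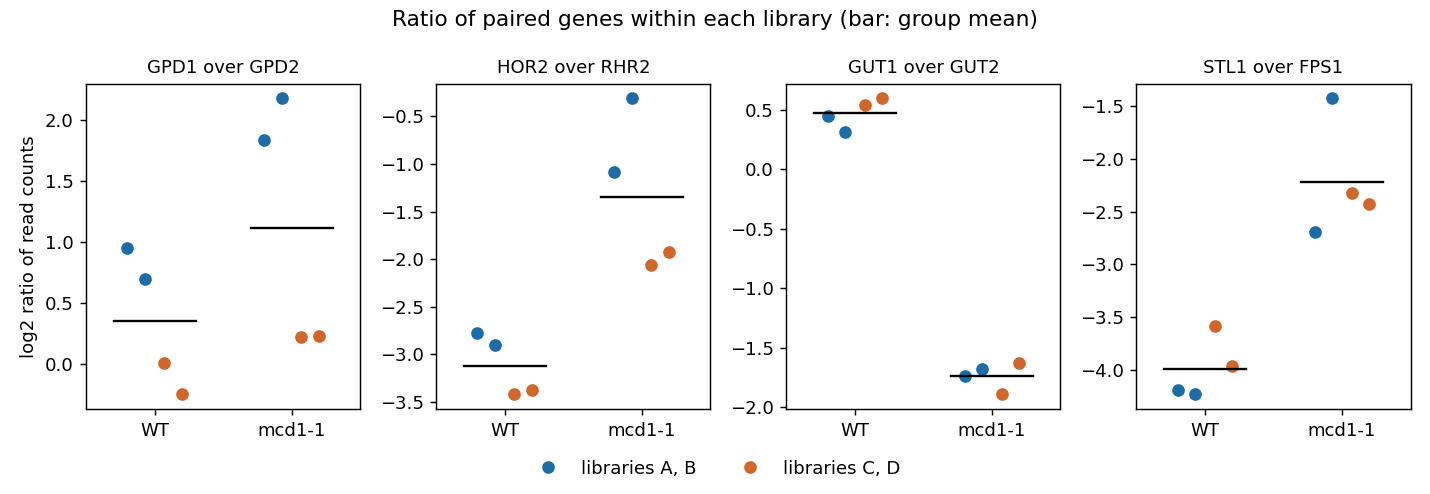
Log2 ratio of read counts of paired genes in each library, blue for A and B, orange for C and D, with a bar for the group mean. GUT1 over GUT2 drops from a mean of 0.48 in WT to -1.73 in mcd1-1 with little spread, while GPD1 over GPD2 overlaps between the groups.

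Of the 61 pathway genes outside the 8, grouped by role, 20 were higher, 7 lower and 34 not called, beside 20.7% and 19.7% of all genes. Their median log2 fold change was 0.34, and 0.67 under library size alone. With the replicate block 30 were higher and 9 lower, beside 29.4% and 30.2% of all genes. The lists come from general knowledge of yeast and were written with earlier results of these data known.

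In the Sln1 branch, the phosphorelay that senses osmolarity, 0 of 6 genes were called in edgeR at an adjusted p under 0.05. The share over all genes was 40.4%. For 1, SSK22, the unadjusted p was under 0.05, a threshold at which the share over all genes is at least 40.4%. DESeq2 called 1 gene higher, beside 23.2% of all genes. Limma-voom called 0, beside 1365 genes higher and 1296 lower over all genes. The replicate block called 2 higher, SSK22 (adjusted p = 0.0036) and SLN1 (0.028), beside 29.4% of all genes. Within A and B 3 were higher and 1 lower, beside 34.8% and 32.9% of all genes, and within C and D 3 were higher and 3 lower, beside 38.8% and 37.1%. Its members with the smallest p were the kinase SSK22 (0.61 ± 0.24, adjusted p = 0.070) and the response regulator SSK1 (-0.20 ± 0.12, adjusted p = 0.192). SSK22 was at 0.82 within A and B and 0.51 within C and D (adjusted p of the difference 0.048). After them came the sensor kinase SLN1 (0.30 ± 0.31) and the transfer protein YPD1 (-0.12 ± 0.13). YPD1 had opposite signs within the sets, -0.35 and 0.14 (adjusted p of the difference 0.010), and the list median was -0.06, but 0.08 with upper-quartile scaling and 0.27 with library size alone, where the median of all genes also moved above 0.

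In the Sho1 branch, which shares kinases with the mating pathway, 2 of 9 genes rose and 1 fell. Over all genes the shares were 20.7% and 19.7%. The kinase STE11 rose (0.81 ± 0.12, adjusted p = 0.0013), as did the membrane anchor OPY2 (0.73 ± 0.19, adjusted p = 0.012). OPY2 was at 0.96 within A and B and 0.48 within C and D (adjusted p of the difference 0.0041). The GTPase CDC42 was lower (-0.53 ± 0.17, adjusted p = 0.036), a call that was lost under 8 of the other settings, among them both changes of scaling named above, and its values within the sets were -0.73 and -0.24 (adjusted p of the difference 0.045). The adaptor STE50 was not called (0.38 ± 0.15, adjusted p = 0.073), but it was called higher with the replicate block (adjusted p = 0.0086). Under that block the branch had 4 genes higher and 2 lower, beside 29.4% and 30.2% of all genes. OPY2 and CDC42 each overlap another model, so their reads may be shared. The same holds for AQY2, PTC2 and HOT1 of the other lists.

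Around Hog1 itself, RCK1, a protein kinase, rose (1.52 ± 0.44, adjusted p = 0.022), but not without WT D (adjusted p = 0.051) or mcd1-1 B (0.057). The phosphatases PTC1 (-0.42 ± 0.12, adjusted p = 0.022) and PTC2 (-0.51 ± 0.15, adjusted p = 0.023), which act on the pathway's kinases, were lower. PTC1 lost its call without any 1 of 6 of the libraries and PTC2 without any 1 of 5. Both lost it under library size alone, and PTC1 also under upper-quartile scaling (-0.29, adjusted p = 0.121). PTC1 was at -0.61 within A and B and -0.18 within C and D (adjusted p of the difference 0.019). That list gave 1 gene higher and 3 lower of 10, HOG1 included, beside 20.7% and 19.7% of all genes. Library size alone gave 6 higher and 0 lower, beside 37.5% and 8.39%. With the replicate block 3 were higher and 4 lower, beside 29.4% and 30.2%. Its median was 0.07. Of the 6 transcription factors downstream of Hog1, 0 were called by edgeR, beside 40.4% of all genes. For 1, HOT1, the unadjusted p was under 0.05, where the share over all genes is at least 40.4%. DESeq2 called 1 higher, beside 23.2% of all genes. Limma-voom called 0, beside 1365 genes higher and 1296 lower over all genes. The replicate block also called 0, beside 29.4% higher and 30.2% lower of all genes. A block for the sets called 2 higher, HOT1 (adjusted p = 0.025) and MSN4 (0.040), beside 33.7% of all genes. Library size alone called 3 higher, beside 37.5%. Within A and B 2 were higher and 1 lower, beside 34.8% and 32.9% of all genes, and within C and D 1 and 1, beside 38.8% and 37.1%. The 4 with the smallest p were HOT1 (0.41 ± 0.15, adjusted p = 0.057), MSN4 (0.33 ± 0.20), MSN2 (0.29 ± 0.21) and MSN1 (-0.18 ± 0.13). HOT1 was at 0.74 within A and B and 0.11 within C and D, and MSN2 at 0.79 and -0.09 (adjusted p of the difference 0.0060 and 0.0014).

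Genes known to be induced by hyperosmotic stress rose in 10 of 13 cases and fell in 0, beside 20.7% higher and 19.7% lower of all genes. Their median log2 fold change was 1.63 beside -0.01. This median was 1.85 within A and B and 1.07 within C and D, beside 0.034 and 0.015 over all genes. Limma-voom called 9 higher, beside 1365 of all genes. DESeq2 called 12, beside 23.2%, and leaving out 1 library gave 8 to 11, beside 1163 to 1373 genes. HOR7 was not called and stayed near 0 (-0.01 ± 0.71, adjusted p = 0.994). GRE1, which encodes a hydrophilin, rose from 4.18 ± 1.20 to 97.2 ± 67.9 CPM (4.55 ± 0.57, adjusted p = 4.6e-04), and the stress protein gene HSP12 rose by 3.87 ± 0.48. ALD3, an aldehyde dehydrogenase gene with a near-identical copy, ALD2, rose by 2.27 ± 0.35, and YML131W by 1.63 ± 0.19 (adjusted p = 3.0e-04). Many of these genes also respond to heat, starvation and other stresses. GRE1, HSP12 and ALD3 changed more within A and B (4.89, 4.23 and 2.98) than within C and D (3.71, 3.14 and 1.40), with differences between the sets called for each (adjusted p = 0.014, 0.0097 and 0.0046). YML131W did not show a called difference (1.67 and 1.62, adjusted p = 0.678).

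Among 6 regulators of GUT1 and GUT2, ADR1 rose 5.07-fold. Adr1 is the activator of genes for glycerol, ethanol and fatty acid use when glucose runs out. ADR1 held 49.2, 47.4, 59.7 and 76.7 CPM in WT A to D and 221, 294, 350.1 and 317 CPM in mcd1-1 A to D (2.34 ± 0.21, adjusted p = 9.9e-05). The groups were separate and the change was alike within A and B (2.41 ± 0.15) and within C and D (2.32 ± 0.11). INO2, an activator of phospholipid genes and of GUT1, fell from 70.2 ± 15.2 to 29.3 ± 3.16 CPM (-1.26 ± 0.17, adjusted p = 7.3e-04), with -0.88 within A and B and -1.55 within C and D (adjusted p of the difference 0.0063). Its partner INO4 was not called (-0.23 ± 0.20, adjusted p = 0.397), with 0.03 within A and B and -0.53 within C and D (adjusted p of the difference 0.0093). MIG1, the glucose repressor, rose (0.62 ± 0.15, adjusted p = 0.011), with 0.80 and 0.43 within the sets (adjusted p of the difference 0.015). This list gave 2 higher, 1 lower and 3 not called of 6, beside 20.7% higher and 19.7% lower of all genes. Its median was -0.12.

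**Figure D5:**
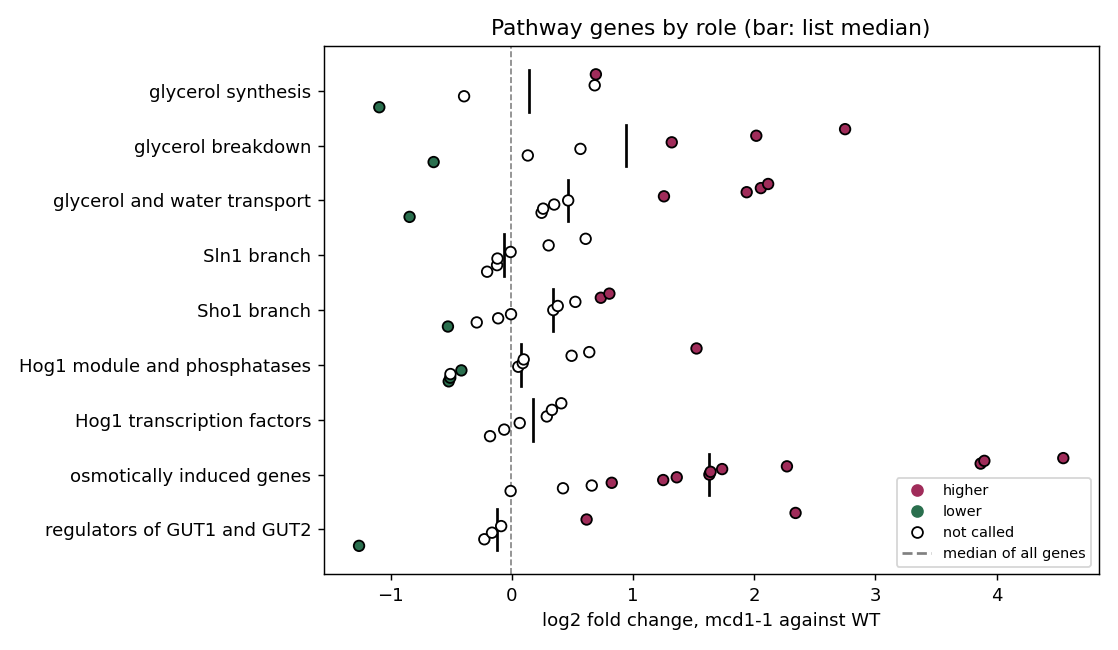
Log2 fold change of each gene in 9 lists by role, coloured where called higher or lower and open where not called, with a bar for the list median and a dashed line for the median of all genes. The osmotically induced genes sit to the right with a median of 1.63, while the Sln1 branch and the Hog1 transcription factors hold open points only.

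For each of the 8 genes the most similar profiles were sought among 6031 other models of at least 10 mean CPM, by the root-mean-square (RMS) difference of centred log2 CPM over the 8 libraries. Models picked in this way have fold changes close to that of the gene by choice, so those values are no separate evidence. GUT2 was closest to YIL024C (RMS 0.20) and to SFC1, the mitochondrial succinate-fumarate carrier (0.21), against a median of 1.48 for all candidates. SFC1 rose by 2.63 ± 0.30 and YIL024C by 2.88 ± 0.23. GCY1 was closest to SSH4 (0.07) and YSR3 (0.10), which rose by 1.37 ± 0.11 and 1.25 ± 0.12. STL1 was nearest to THI21 (0.21) and ALD3 (0.22), and GUT1 to RRD1 (0.06) and YCR050C (0.07). SSH4 and YCR050C each overlap another model and may share its reads. HOG1 was nearest to PET9, the main ADP/ATP carrier of mitochondria (0.04), and to ITR2, an inositol transporter (0.05). GPD2 was nearest to RAP1 (0.07) and NGL2 (0.09), and FPS1 to TOS2 (0.05) and LUC7 (0.06). The nearest to GPD1 was YDL023C (0.06), the model that overlaps it and may share its reads, followed at a distance by SOH1 (0.20).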

How the data were processed

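Poly(A) RNA of 4 WT and 4 mcd1-1 samples was measured by sequencing, with NEBNext Ultra libraries, per the labels. The authors deposited raw counts of reads for each gene model, with no normalisation. Tools listed in the submitters' processing notes are featureCounts 1.6.0, STAR 2.5.3a, Trim Galore 0.4.3, bcl2fastq 2.9 and Picard, and the build listed is R64. Their settings, the strand option included, are not given in the sources used. In the table as received 4 lines were empty. All 8 count columns were matched to samples by title.

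Models were kept by filterByExpr (6558), scaled by TMM (factors 0.879 to 1.21) and tested in edgeR 4.0.16 by the 2-sided quasi-likelihood F test with group as the only term. Adjusted p-values are Benjamini-Hochberg values over every model tested, called under 0.05. The SE of a log2 fold change follows from the F statistic, and a value ± another without a unit is a log2 fold change ± SE. The script was tested on simulated data that held a genotype effect but no difference between the library sets. That test therefore cannot show how the fits behave where the sets differ. Count ratios had 0.5 added to each count. The limit of 3 counts for an undetected gene is 0.051 to 0.134 CPM and covers counting error only.

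The members and the 9 lists (69 genes, 3 of them matched through RefSeq synonyms) were chosen with earlier results of these data known. Named genes were the 8 genes, MCD1, the glycerol lists, the 4 genes with the smallest p of each other list and the 2 most similar profiles per gene. YOR121C, YDL023C and the copy ALD2 were named after their values were seen, as overlapping or copied models. HOR7 was also named after its value was seen, as a listed gene that was not called. The alternatives were RLE, upper-quartile and library-size scaling, DESeq2 1.42.0, limma-voom (limma 3.58.1), no low-count filter, 10 CPM in 4 libraries, the replicate letter or the sets A and B and C and D as a block, each set alone, each library left out, and a pseudocount of 1 or 0 for ratios. The term for genotype by set was added after seeing the data.

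Deviations from the group means of same-lettered WT and mcd1-1 libraries correlated at 0.606, 0.452, 0.633 and 0.598, which is above 0.1 in each pair. The letters were treated as pairing the samples only in the replicate block, an alternative. The main fit and the exact test took no account of the letters. Different letters within a set correlated at 0.490 to 0.653 and letters across sets at -0.643 to -0.448, so the correlation follows the sets.

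RefSeq locus tags were found for 5914 models, and coordinates were identical for 5885, the 8 genes included. Sequences were read from the RefSeq R64 genome. Near-identical copies were sought with blastn 2.17.0 (at least 90% identity over 100 bp), and pairs of genes were aligned globally with Biopython 1.88. Motifs were chosen after the data were seen and searched on both strands.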

Additional observations from a re-analysis of the deposited data

Results flagged for a closer look

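STL1 in mcd1-1 library B, at 71.3 CPM, stood apart from the other 3 mutant libraries, at 29.0 to 29.4 CPM. This was the 1 such case among 86 sets of 4 libraries checked, where chance gives about 1 in 20.

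The log2 fold change differed between libraries C and D and libraries A and B for GPD1 (-1.51, adjusted p = 0.0011 in edgeR), GPD2 (-0.66, adjusted p = 0.0032) and FPS1 (-0.35, adjusted p = 0.042). The same term was called for 36.7% of all genes. The letters carry no label beyond the replicate, and what sets A and B apart from C and D was not tested.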

How the results depend on the processing

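The calls of GUT2, GCY1 and STL1 held in each setting run. GPD1 was 1.14 (adjusted p = 8.2e-04) in A and B only and reversed to -0.33 (0.0018) in C and D only, both with TMM scaling. GPD2 was called by DESeq2 (-0.41), with the sets as a block (-0.38, adjusted p = 0.028) and in C and D only (-0.67). Under library size alone GPD2 was at -0.05 (adjusted p = 0.821). FPS1 was called under library size alone (0.59, adjusted p = 0.012) and in A and B only (0.41). GUT1 was called under library size alone (0.91, adjusted p = 0.019), with the replicate block (0.54), with the sets as a block (0.54), in A and B only (0.66), in C and D only (0.45) and without mcd1-1 C (0.74, adjusted p = 0.041). HOG1 was not called under library size alone (-0.19). The replicate block changed no other call of the 8 genes. Leaving out each library gave log2 fold changes of 0.29 to 0.98 for GPD1, -0.47 to -0.29 for GPD2, 1.72 to 2.27 for STL1, 0.22 to 0.34 for FPS1, 0.45 to 0.74 for GUT1, 2.62 to 2.93 for GUT2, 1.28 to 1.39 for GCY1 and -0.55 to -0.40 for HOG1. The ratios kept their direction, with 0.41 to 1.06 for GPD1 over GPD2, 1.43 to 2.01 for HOR2 over RHR2, -2.26 to -2.16 for GUT1 over GUT2 and 1.51 to 1.94 for STL1 over FPS1, and GUT1 over GUT2 was at -2.33 in C and D only.

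Over all genes 1359 were higher and 1291 lower. Under upper-quartile scaling 1739 were higher and 915 lower. The counts were 2460 and 550 under library size alone, 1927 and 1978 with the replicate block, 2207 and 2241 with the sets as a block, 2287 and 2164 in A and B only, 2549 and 2436 in C and D only, and 1163 to 1373 and 859 to 1249 with a library left out, the lowest count of lower genes without mcd1-1 B. For the 61 pathway genes they were 37 and 3 under library size alone, 28 and 4 under upper-quartile scaling, 33 and 9 with the sets as a block, 35 and 12 in A and B only, 35 and 18 in C and D only, and 17 to 23 and 3 to 7 with a library left out.

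The difference between sets of GUT2 changed sign around 0 under RLE scaling (0.01) and with a library left out (-0.11 to 0.0728). With a library left out so did those of GCY1 (-0.18 to 0.0132) and HOG1 (-0.0948 to 0.34), and none of the 3 was called over the 8 libraries. The difference became called in 1 of the other settings for HOG1, in 1 for GUT1 and in 2 for STL1. The causes were not tested. With 2 libraries per group, the fits of 1 set alone rest on few degrees of freedom.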
